A study of Mus musculus with 6 samples.

Results

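The nuclear genes of oxidative phosphorylation were taken from the deposited gene tables by symbol, as every gene named Ndufa, Ndufb, Ndufc, Ndufs or Ndufv with a number, *Sdha* to *Sdhd*, Uqcr, Cox4 to Cox8 or Atp5, and this rule matched 81 of the 53715 genes listed. The rule used no measured value. Of the 81, 35 were placed in complex I, 4 in complex II, 8 in complex III, 18 in complex IV and 15 in complex V. *Ndufa4* was counted in complex IV, where its product is now placed. *Atp5s* matched the rule by symbol but is not a subunit of the ATP synthase, and it was kept as a separate gene.

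The libraries were made from total RNA of osteoblasts of C57BL/6J mice, that is, of calvarial cells of newborn animals kept for 7 days in osteogenic medium, a culture condition that both genotypes shared. There were 3 wild-type and 3 *Fam102a* KO libraries, and the question was which transcripts differ without *Fam102a*. In the study's floxed *Fam102a* allele the loxP sites enclose exons 2 and 3, and global deletion was obtained with an Actb-Cre line. The labels do not say whether the 3 libraries of a genotype came from separate animals or cultures, so the p-values measure the spread between these libraries, which may be technical.

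Oxidative phosphorylation passes electrons from NADH (complex I, NADH:ubiquinone oxidoreductase) and from succinate (complex II, succinate dehydrogenase) through ubiquinone to complex III (cytochrome bc1) and on to complex IV (cytochrome c oxidase), which reduces oxygen. The proton gradient built by complexes I, III and IV drives ATP synthesis by complex V, the F1Fo ATP synthase. Most subunits are encoded in the nucleus and imported into the mitochondrion, whereas a small set, including the catalytic core of complex IV, is encoded by mitochondrial DNA. Osteoblasts use both glycolysis and oxidative phosphorylation for ATP while they secrete and mineralize matrix.

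Gene reads, the reads counted on exons and introns of a gene, totalled 12212169 to 21210150 per library. Introns took 52.2 to 54.5% of the gene reads in wild-type and 45.8 to 53.2% in *Fam102a* KO libraries, so libraries were also compared on exon reads. The members took 0.30 to 0.33% of the gene reads in wild-type and 0.32 to 0.36% in *Fam102a* KO libraries. A single gene outside the members, *Rn7s1*, took 16.65, 15.77 and 15.81% of the gene reads in wild-type libraries. In *Fam102a* KO libraries it took 9.66, 13.35 and 11.36%. On exon reads alone their share was 0.580 to 0.639% in wild-type and 0.597 to 0.639% in *Fam102a* KO, and these ranges overlap. *Fam102a* had 170, 249 and 244 gene reads in the wild-type libraries and 185, 260 and 257 in the *Fam102a* KO libraries, and 124, 206 and 207 against 123, 174 and 157 exon reads. The log2 fold change of *Fam102a* was −0.04 ± 0.13 (SE) on gene reads and −0.34 ± 0.14 on exon reads (adjusted p = 0.667 in edgeR). Both kinds of reads cover the whole gene, including what lies outside the loxP sites, and so they cannot check the labels.

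Of 10 osteoblast markers, 9 had enough reads to be tested, and *Bglap*, the osteocalcin gene of mature osteoblasts, had 0 reads in 4 of the 6 libraries. *Postn* (log2 fold change 0.52) was higher in *Fam102a* KO libraries with an unadjusted p below 0.05 in edgeR, as 2.92% of all genes tested were. *Runx2* (−0.40), *Sp7* (−0.98) and *Alpl* (−1.67) were lower at that threshold, as 3.12% were. None of the 4 had an adjusted p under 0.05. The others, *Col1a1* (−0.005), *Col1a2* (0.02), *Sparc* (0.04), *Spp1* (0.27) and *Ibsp* (1.35 ± 1.37, SE), had an unadjusted p above 0.05. Over the 9 markers, 5 were above 0 and 4 below, with a median of 0.02. Summed over each marker list, the adipocyte level was 38.2 to 52.5 CPM (gene reads per 1000000 reads of the TMM-scaled library) in wild-type and 22.7 to 37.9 in *Fam102a* KO libraries, the skeletal muscle level was 25.3 to 41.0 and 41.6 to 69.3, and neither pair of ranges overlaps. Single genes with every *Fam102a* KO library above or below every wild-type library made up 5.48% and 5.61% of all genes tested. The adipocyte members did not go one way, with log2 fold changes of 0.59 (*Fabp4*), −0.52 (*Lpl*) and −0.80 (*Pparg*, unadjusted p = 0.0022, adjusted p = 0.346 in edgeR), while all 4 muscle genes tested were above 0 and *Des* (0.62) was higher with an unadjusted p below 0.05. The chondrocyte sum was 2226 to 2769 against 1077 to 2268 CPM, the macrophage sum 865 to 2441 against 435 to 1933, the endothelial sum 36.2 to 68.8 against 4.69 to 82.8 and the neural and Schwann sum 54.5 to 67.6 against 46.2 to 68.1. All 6 chondrocyte markers tested were below 0. *Comp*, a cartilage matrix protein, had 293, 290 and 274 CPM in wild-type and 82.5, 126 and 93.0 CPM in *Fam102a* KO libraries (log2 fold change −1.51 ± 0.16, SE, adjusted p = 0.026 in edgeR), and *Col9a1* (−1.38) and *Col11a2* (−1.16) were lower with an unadjusted p below 0.05. With the replicate number as a block *Col2a1*, *Sox9* and the endothelial marker *Cdh5* were lower as well with an unadjusted p below 0.05, as 4.25% of all genes were. The neural and Schwann markers *Sox10* (2.14, unadjusted p = 0.025) and *S100b* (−1.13, unadjusted p = 0.019, in edgeR) went in opposite directions, and with the block the adjusted p of *S100b* was 0.044. The tested muscle genes were *Acta1*, *Des*, *Mylpf* and *Tnnt3*, 4 of 8, whereas *Ckm* had 1 to 3 reads and *Myog* 0 to 3 reads in every library. *Myh8*, also not tested, had 14, 20 and 8 reads in wild-type and 7, 4 and 9 in *Fam102a* KO libraries. *Myh3* had 4, 4 and 6 against 3, 5 and 7 reads. Of 7 adipocyte markers 3 were tested, and *Ucp1* had 0 to 3 and *Adipoq* 0 to 11 reads. The part of these cell types in the members' values was not tested, and in bulk RNA fewer cells of a type and less RNA per cell cannot be told apart.

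Nuclear respiratory genes are known for promoters bound by NRF1, GABP (NRF2), YY1 and estrogen-related receptors (ERR). RefSeq (GRCm38.p6) gave 72 promoter windows for 67 members, each of 300 bases, 250 before and 50 after the start site. Windows are shown for the letters of these factors that they carry. In each complex, the window printed is that of the member with the highest wild-type RPKM among those whose window held the letters of any of these factors, a choice made after the values were seen. Capitals mark GCATGCGC (NRF1), CCGGAAGT (GABP), AAGATGGC (YY1) and AAGGTCA (ERR) or their reverse complements. In *Cox6a1* the matches of GCATGCGC on the 2 strands overlap, and no other marked stretches do.
Ndufa8 (chr2:36049289-36049588, minus strand): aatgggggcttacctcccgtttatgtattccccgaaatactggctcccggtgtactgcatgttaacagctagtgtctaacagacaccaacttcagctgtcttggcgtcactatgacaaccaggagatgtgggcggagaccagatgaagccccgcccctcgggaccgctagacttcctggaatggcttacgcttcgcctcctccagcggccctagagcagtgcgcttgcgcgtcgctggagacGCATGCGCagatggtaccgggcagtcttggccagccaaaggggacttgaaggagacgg
Sdhd (chr9:50603800-50604099, minus strand): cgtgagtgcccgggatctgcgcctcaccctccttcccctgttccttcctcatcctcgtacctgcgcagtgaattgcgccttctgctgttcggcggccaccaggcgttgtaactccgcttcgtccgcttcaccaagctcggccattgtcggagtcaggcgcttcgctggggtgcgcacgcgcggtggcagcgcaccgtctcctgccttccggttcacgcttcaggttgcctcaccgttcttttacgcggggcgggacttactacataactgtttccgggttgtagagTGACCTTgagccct
Uqcr11 (chr10:80406772-80407071, minus strand): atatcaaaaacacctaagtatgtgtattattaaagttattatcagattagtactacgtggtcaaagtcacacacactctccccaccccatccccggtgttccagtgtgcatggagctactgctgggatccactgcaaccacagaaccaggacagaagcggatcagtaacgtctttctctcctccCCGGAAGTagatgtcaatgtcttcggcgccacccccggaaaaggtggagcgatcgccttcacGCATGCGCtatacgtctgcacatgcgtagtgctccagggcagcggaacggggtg
Cox6a1 (chr5:115348909-115349208, minus strand): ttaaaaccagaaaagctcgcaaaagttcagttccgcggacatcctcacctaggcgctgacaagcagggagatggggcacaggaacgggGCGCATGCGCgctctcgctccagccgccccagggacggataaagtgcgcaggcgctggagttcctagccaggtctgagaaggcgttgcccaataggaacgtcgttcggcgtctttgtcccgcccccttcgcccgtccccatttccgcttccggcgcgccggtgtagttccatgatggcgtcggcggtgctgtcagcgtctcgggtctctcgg
Atp5l (chr9:44920693-44920992, minus strand): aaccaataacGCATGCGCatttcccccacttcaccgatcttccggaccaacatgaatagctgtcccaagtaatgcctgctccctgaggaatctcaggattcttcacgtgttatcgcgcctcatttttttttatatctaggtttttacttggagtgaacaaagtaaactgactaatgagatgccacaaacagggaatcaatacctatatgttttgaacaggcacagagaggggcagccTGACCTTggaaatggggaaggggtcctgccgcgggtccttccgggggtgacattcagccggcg

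On either strand, GCATGCGC stood in 10 of the 72 member windows (13.9%), in 4.51% of the windows of all genes tested and in 2.71% of all 32851 windows. AAGATGGC stood in 10 member windows (13.9%), against 3.85% of the tested genes' windows and 2.75% of all windows. AAGGTCA stood in 8 member windows (11.1%), against 3.29% of the tested genes' windows and 4.72% of all windows. CCGGAAGT was as frequent in member windows as in those of the tested genes (5 windows, 6.9% against 6.9%), and stood in 3.89% of all windows. TGTGGTTT, the letters of a Runx site, was in 0 of the 72 member windows, in 1.23% of the tested genes' windows and in 1.78% of all windows. ACGTGC, the core of a hypoxia response element, was in 4 (5.6%), against 7.7% of the tested genes' windows and 5.91% of all windows. Matches are descriptions of these windows and not of factor binding. The YY1 letters began 22 to 38 bases after the start site in *Atp5j2* and in the complex I genes *Ndufa3*, *Ndufa9*, *Ndufb8*, *Ndufc1*, *Ndufs4*, *Ndufs6* and *Ndufs7*. The median GC content was 57.5% in member windows and 60% in those of the tested genes.

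The members ranked among the more abundant transcripts of these cells. On the deposited RPKM scale (exon reads per kilobase of exon per 1000000 gene reads), the median wild-type level of the 77 members tested was 18.1, against 1.91 for all 16391 genes tested. *Cox6a1* had the highest level, with 128 ± 13.7 RPKM (SD, n = 3) in wild-type, and 1.37% of the tested genes were above it. *Cox8a* followed with 86.4 ± 12.9, *Atp5b* with 77.6 ± 4.49, *Cox4i1* with 70.4 ± 8.68, *Uqcr11* with 66.4 ± 7.88 and *Atp5a1* with 65.4 ± 6.34 RPKM. The wild-type libraries of *Cox6a1* were all above those of *Cox8a*, whereas from *Cox8a* down to *Atp5a1* each gene's range overlapped that of its neighbour. By complex, the median wild-type RPKM was 13.0 for I, 19.4 for II, 22.7 for III, 25.2 for IV and 26.2 for V. The spread within a complex was narrowest in complex II, where the highest gene was 1.97 times the lowest, and 5.80 times in III, 12.1 times in V and 14.9 times in I. In complex IV it was 216 times, from *Cox6a1* down to *Cox7a1*. RPKM divide by annotated exon length, and these ratios depend on it. It was 5628 bases for *Ndufb2*, the lowest of complex I, and 4912 for *Atp5g1*, the lowest of complex V. Their coding lengths were 315 and 408 bases. *Ndufb2* was named after its level was seen.

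Between genotypes, none of the nuclear subunit genes changed by the test. Of the 77 members that passed the filter on low reads, 0 had an adjusted p under 0.05 in edgeR (quasi-likelihood, Benjamini-Hochberg), where 8 of 16391 genes did (0.0488%). At an unadjusted p under 0.05, 0 members were higher in *Fam102a* KO libraries and 0 were lower, against 2.92% and 3.12% of all genes tested. DESeq2 likewise gave 0 members at an adjusted p under 0.05 (0.738% of all genes) and 0 with an unadjusted p below 0.05. The log2 fold change, *Fam102a* KO over wild-type, was above 0 for 32 members and below 0 for 45, with 49.8% of all genes above 0. This split depended on the scale. On both log2(RPKM + 0.1) and log2(RPKM + 1) 63 of the 77 members were above 0, where 69.6% and 70.0% of all genes were and the median of all genes was 0.11 and 0.06. Its median over the members was −0.02, against −0.00 over all genes, and the lowest adjusted p of a member was 0.825. The 4 members left out by the filter were *Cox6a2*, *Cox7b2*, *Cox8b* and *Cox8c*.

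The members' values lay in a narrow range, from −0.24 (*Atp5s*) to 0.30 (*Cox4i2*) on the log2 scale, and 71.6% of all genes tested fell within the same limits. The median size of the log2 fold change was 0.09 for members and 0.14 for all genes, and the median standard error 0.13 and 0.20, at median levels of 31.0 and 11.5 CPM. The 95% interval lay within 1 log2 unit of 0 for 74 members, against 70.4% of all genes, and within 0.5 for 57 members, against 37.3%. The 3 members with wider intervals were *Ndufs7*, *Cox7a1* and *Cox4i2*. For most members a change of 2-fold in either direction was thus outside the interval. For 57 members a change of 0.5 log2 units was outside it as well, while changes close to 0 were within it.

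**Figure D1:**
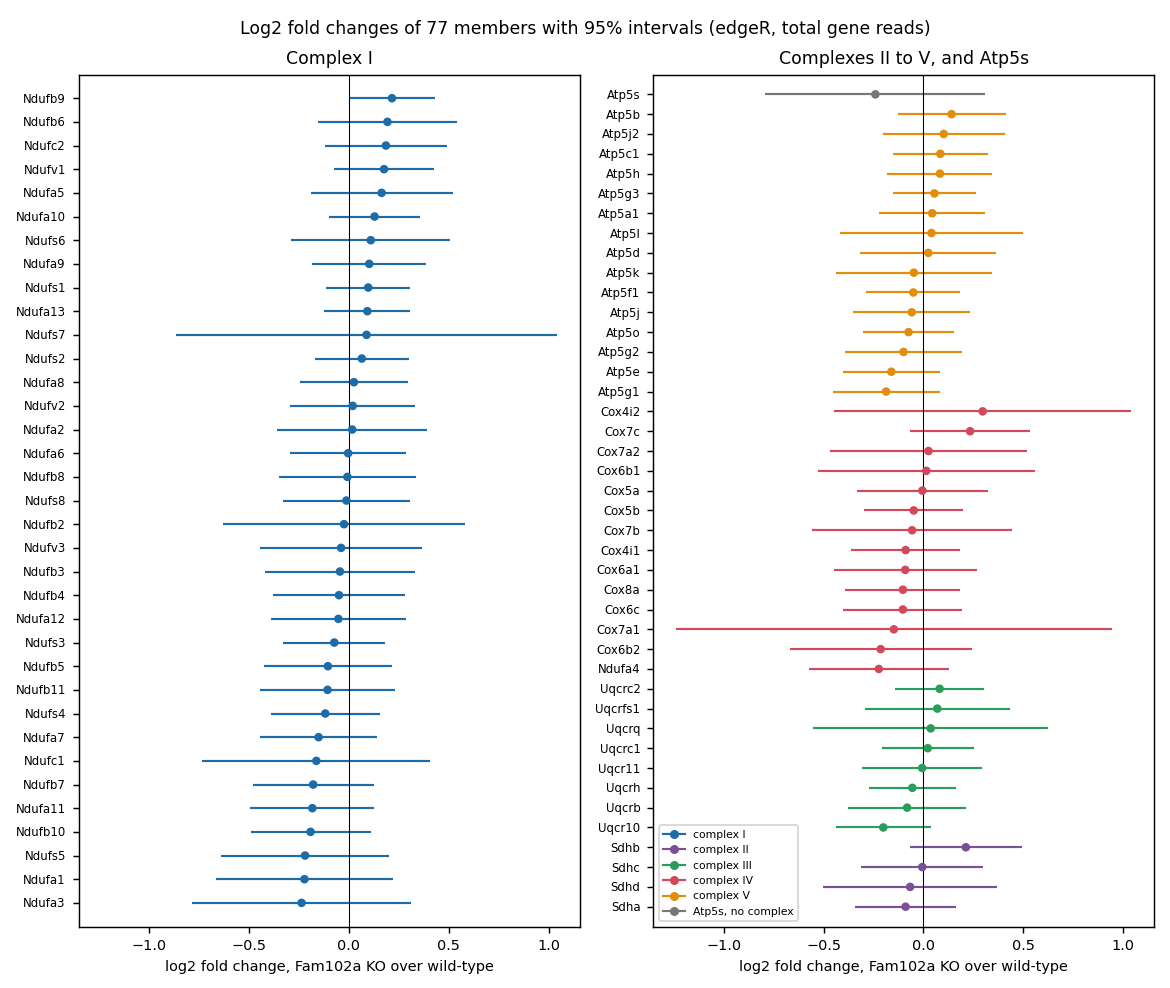
Log2 fold changes (x axis, *Fam102a* KO over wild-type, total gene reads) of the 77 members tested, 1 gene a line, coloured by complex, where points are edgeR estimates and lines are 95% intervals. The points lie between −0.24 and 0.30 and every line crosses 0, that of *Ndufb9* only just.

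Summed over each complex on the CPM scale, the levels of the genotypes overlapped. The 35 complex I genes summed to 909, 968 and 963 CPM in wild-type and 973, 990 and 895 CPM in *Fam102a* KO libraries. The 4 complex II genes summed to 202, 230 and 242 CPM against 207, 230 and 233. The 8 complex III genes summed to 310, 313 and 328 CPM against 325, 317 and 302. In each of these complexes the ranges of the genotypes overlapped. The 14 complex IV genes tested summed to 507, 566 and 562 CPM against 531, 553 and 504, and the 15 complex V genes to 1172, 1224 and 1282 CPM against 1204, 1283 and 1305. The ratio of the *Fam102a* KO mean to the wild-type mean was between 0.971 (IV) and 1.03 (V). On the deposited RPKM scale the complex I sums were 548, 573 and 593 in wild-type and 659, 606 and 622 in *Fam102a* KO libraries, which do not overlap, and those of the other complexes overlapped. The ratios of the RPKM sums were 1.10 (I), 1.09 (II), 1.06 (III), 1.04 (IV) and 1.13 (V), on a scale where the median of all genes was itself above 0. RPKM divide by all gene reads, of which *Rn7s1* took a smaller share in *Fam102a* KO libraries. Its part in these ratios was not tested. On gene reads the median log2 fold change was −0.01 in I, −0.04 in II, 0.01 in III, −0.07 in IV and 0.02 in V.

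**Figure D2:**
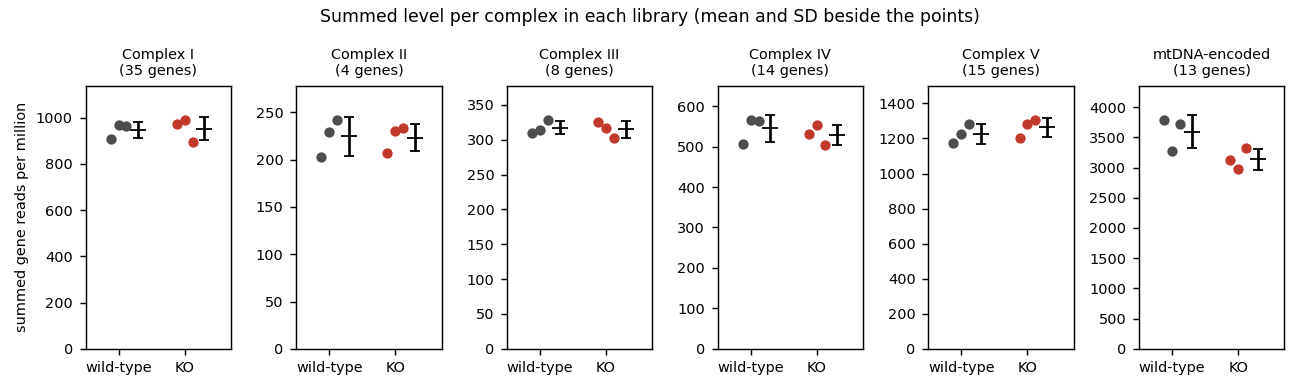
Summed level of each complex in each library (y axis, CPM of gene reads, from 0), wild-type in grey and *Fam102a* KO in red, with the mean and SD of 3 libraries beside the points. On this scale the genotypes overlap in complexes I to V, with ratios of 0.971 to 1.03, and the 13 genes of mitochondrial DNA reach 3282 to 3788 CPM in wild-type and 2978 to 3325 CPM in *Fam102a* KO libraries.

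In complex I, 15 of 35 genes had a log2 fold change above 0, from −0.24 for *Ndufa3* to 0.22 for *Ndufb9*. Its 7 core genes of the matrix arm, which hold the flavin and iron-sulfur centres, had a median of 0.06 with 5 above 0, the 9 accessory genes of the matrix arm a median of −0.00 with 4 above 0, and the 19 accessory genes of the membrane arm a median of −0.05 with 6 above 0. The most abundant members were *Ndufa13*, an accessory subunit also known as GRIM-19, at 40.1 ± 0.41 RPKM, and *Ndufb9*, an accessory subunit of the membrane arm, at 37.3 ± 2.56 RPKM (wild-type, SD, n = 3).

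*Ndufb9* (ENSMUSG00000022354, mm10 chr15:58933756-58939488, plus strand, 4 exons) had 28.6, 28.6 and 30.4 CPM in wild-type and 34.2, 33.5 and 34.2 CPM in *Fam102a* KO libraries. All *Fam102a* KO libraries were above all wild-type libraries. Its log2 fold change of 0.22 ± 0.10 (SE, n = 3 against 3) had an unadjusted p of 0.051 and an adjusted p of 0.825 in edgeR, the lowest of any member. On exon reads it was 0.26 ± 0.10, and *Ndufb9* was then the only member of 76 tested that was higher with an unadjusted p below 0.05 (unadjusted p = 0.025, adjusted p = 0.631, edgeR), where 3.41% of all genes were. Uniquely placed gene reads, which made up 80.8% of its reads, gave 0.23 and an unadjusted p of 0.051. By uniquely placed gene reads 0 members had an unadjusted p under 0.05 in either direction, against 6.35% of all genes. An unnamed coding gene, AC158777.2, overlaps *Ndufb9* on the same strand, with 290 reads over the 6 libraries.

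Ndufa13 (chr8:69894180-69902558, minus strand) had 53.5, 56.4 and 53.3 CPM in wild-type and 61.3, 57.1 and 55.6 CPM in Fam102a KO libraries. Its groups overlapped, and its log2 fold change was 0.09 ± 0.10 (SE). Uniquely placed reads were 47.2% of its gene reads, and 28.5% of the 50-base windows of its transcripts occur in transcripts of other genes.

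*Ndufa3*, a small accessory subunit of the membrane arm and the lowest of complex I, had 25.5, 28.1 and 24.5 CPM in wild-type and 28.7, 23.7 and 14.1 CPM in *Fam102a* KO libraries. The third *Fam102a* KO library was by far the lowest, the second was just below the wild-type range and the first was above it. The log2 fold change was −0.24 ± 0.24 (SE), and 0.00 without the third *Fam102a* KO library.

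*Ndufs7*, a core subunit that carries an iron-sulfur centre, had 812, 1445 and 1020 gene reads in wild-type and 1509, 1408 and 723 in *Fam102a* KO libraries, chosen for description after its interval was seen. Introns took 75.7% of these reads, and the intron reads ran from 414 in the third to 1263 in the first *Fam102a* KO library. Its exon reads, 182, 304 and 310 against 246, 327 and 309, followed the depth of the libraries more closely. The log2 fold change was 0.09 ± 0.39 (SE) on gene reads and 0.05 ± 0.12 on exon reads.

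Over all members, 3 had every *Fam102a* KO library above every wild-type library, where 5.48% of all genes did, and 1 had every *Fam102a* KO library below, where 5.61% did. The 3 were *Ndufb9*, *Ndufs1*, the largest core subunit of complex I, and *Ndufa10*, an accessory subunit. *Ndufs1* had 39.1, 37.7 and 37.0 CPM in wild-type and 41.0, 41.5 and 39.2 CPM in *Fam102a* KO libraries (log2 fold change 0.10 ± 0.09, SE). *Ndufa10* had 35.04, 37.8 and 36.8 against 37.9, 38.8 and 43.2 CPM (0.13 ± 0.10). In both genes the lowest *Fam102a* KO and the highest wild-type library almost touched. *Ndufs1* and *Ndufa10* were named after their values were seen.

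Complex II, which is also an enzyme of the tricarboxylic acid cycle and is encoded in the nucleus alone, had 1 gene above 0 and 3 below. *Sdha*, the flavoprotein subunit that oxidizes succinate, had 98.9, 102 and 109 CPM in wild-type and 92.3, 90.7 and 108 CPM in *Fam102a* KO libraries. *Sdhb*, the iron-sulfur subunit, had 38.4, 42.2 and 44.9 CPM against 47.7, 55.3 and 42.5 CPM. The catalytic pair thus had opposite signs, with log2 fold changes of −0.09 ± 0.11 (SE) for *Sdha* and 0.21 ± 0.12 for *Sdhb* (unadjusted p = 0.122 in edgeR), and in each the groups overlapped. For *Sdhb* the third *Fam102a* KO library lay inside the wild-type range, and without it the log2 fold change was 0.30 with an unadjusted p of 0.041.

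*Sdhc*, a membrane anchor of complex II, had 37.4, 48.3 and 50.7 CPM in wild-type and 42.3, 44.3 and 49.5 CPM in *Fam102a* KO libraries. *Sdhd*, the other anchor, had 27.7, 36.9 and 37.3 CPM against 24.5, 39.8 and 32.9 CPM. The first library of each genotype was the lowest of its group for both anchors, and their log2 fold changes were −0.01 ± 0.13 (*Sdhc*) and −0.07 ± 0.19 (*Sdhd*).

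In complex III, 4 of 8 genes were above 0. The core subunits *Uqcrc1* and *Uqcrc2* and the Rieske iron-sulfur protein *Uqcrfs1* had log2 fold changes of 0.02, 0.08 and 0.07, and the 5 small accessory subunits had a median of −0.06 with 1 above 0. *Uqcrc2*, the highest of the complex, had 40.0, 40.2 and 42.7 CPM in wild-type and 41.0, 42.6 and 46.4 CPM in *Fam102a* KO libraries (0.08 ± 0.10, SE). Its groups overlapped.

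Uqcr10 (chr11:4701973-4704342, minus strand), a small accessory subunit, had 24.7, 26.8 and 28.1 CPM in wild-type and 23.0, 23.2 and 23.1 CPM in Fam102a KO libraries. It was the only member with every Fam102a KO library below every wild-type library, and the Fam102a KO libraries lay close together. Its log2 fold change was −0.20 ± 0.11 (SE), with an unadjusted p of 0.088 and an adjusted p of 0.928 in edgeR, and −0.19 on exon reads. Uqcr11 and Uqcrh, the most abundant small subunits, differed less. Uqcr11 had 50.9, 41.6 and 44.1 CPM against 52.2, 39.6 and 44.1 CPM (−0.01 ± 0.13), with replicate 1 highest in both genotypes. Uqcrh, the hinge protein that binds cytochrome c1, had 62.2, 62.9 and 69.1 CPM against 60.8, 63.5 and 62.6 CPM (−0.06 ± 0.10).

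Complex IV has subunit isoforms that differ between tissues. In these libraries the general form gave most of the summed RPKM of each isoform group. *Cox6a2*, *Cox7a1* and *Cox8b* are the isoforms of heart and skeletal muscle, *Cox4i2* is known from lung and from hypoxia, and *Cox6b2*, *Cox7b2* and *Cox8c* are known from testis. *Cox6a2* had 0, 0 and 7 gene reads in wild-type and 1, 1 and 0 in *Fam102a* KO libraries, while *Cox6a1* made up 99.6 to 100% of the summed RPKM of the pair in every library. *Cox8c* had 1 read in all 6 libraries together. *Cox8b* had 2, 9 and 1 reads against 0, 2 and 0, and *Cox7b2* 3, 5 and 10 against 8, 10 and 7, and all reads of both were intronic. These 4 genes did not pass the filter on low reads and no fold change is given for them. A count of 0 allows up to 3 reads.

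*Cox7a1* was at 5, 13 and 14 reads in wild-type and 5, 10 and 16 in *Fam102a* KO libraries, and made up 0.721 to 2.96% of the summed RPKM of *Cox7a1* and *Cox7a2*. *Cox6b2* was more abundant, with 7.30, 7.32 and 9.58 CPM against 8.05, 7.21 and 5.68 CPM, and made up 10.6 to 15.8% of the summed RPKM of *Cox6b1* and *Cox6b2* in the 6 libraries. The groups overlapped for both isoforms, and their log2 fold changes were −0.15 ± 0.48 (SE) for *Cox7a1* and −0.21 ± 0.20 for *Cox6b2*.

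Cox4i2 (chr2:152754173-152765037, plus strand) had the highest log2 fold change of all members and was also decided by 1 library. It had 4.41, 5.11 and 5.33 CPM in wild-type and 4.46, 4.20 and 9.60 CPM in Fam102a KO libraries. The third Fam102a KO library was far above all others, and the remaining Fam102a KO libraries were within or below the wild-type range. Cox4i2 made up 13.5% of the summed RPKM of Cox4i1 and Cox4i2 in that library and 5.48 to 7.52% in the other 5. The log2 fold change of 0.30 ± 0.33 (SE, unadjusted p = 0.388 in edgeR) turned to −0.20 without the third Fam102a KO library. Its general partner Cox4i1 had 102, 116 and 129 CPM against 100, 113 and 113 CPM (−0.09 ± 0.12). Of the Cox4i1 reads 56.5% were uniquely placed, and a read-through gene model, Gm20388, overlaps it on the same strand.

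**Figure D3:**
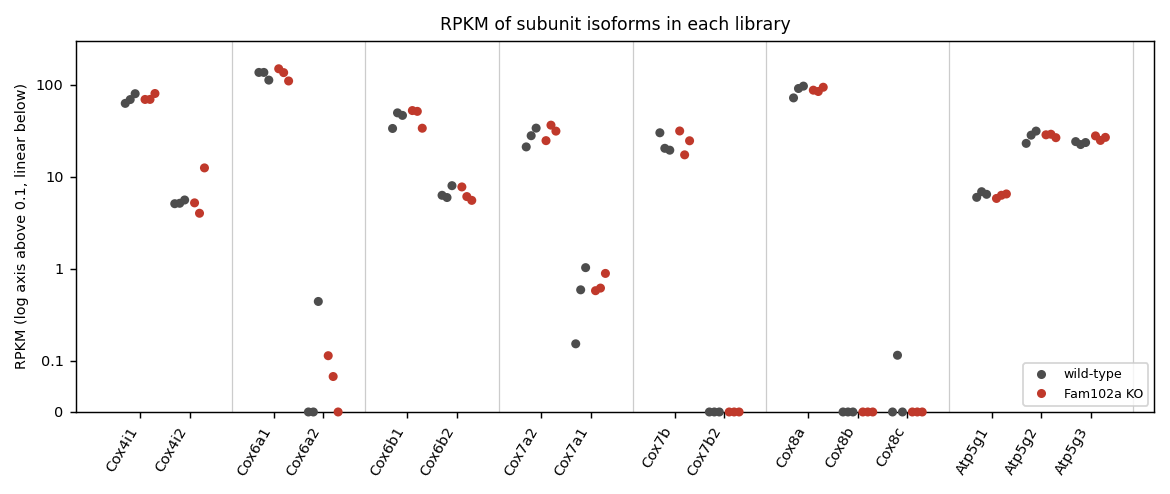
RPKM (y axis, log above 0.1 and linear below) of complex IV and complex V subunit isoforms in each of 3 wild-type (grey) and 3 *Fam102a* KO (red) libraries, 1 point a library. Muscle and testis isoforms lie at or near 0 except *Cox6b2*, and for *Cox4i2* the third *Fam102a* KO library, at 12.5 RPKM, stands above the other 5, at 4.01 to 5.59 RPKM.

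The 11 general subunits of complex IV ran from −0.22 (*Ndufa4*) to 0.23 (*Cox7c*). *Cox6a1* had 99.5, 103 and 82.6 CPM in wild-type and 97.9, 100.01 and 70.0 CPM in *Fam102a* KO libraries, with the third library lowest in each genotype (−0.09 ± 0.16, SE). *Cox8a* had 41.6, 53.9 and 55.1 CPM against 44.4, 49.2 and 46.8 CPM (−0.10 ± 0.13). *Cox6b1* had 26.8, 40.0 and 35.6 CPM against 38.9, 41.1 and 23.7 CPM (0.01 ± 0.23). The groups overlapped in all 3 genes. *Cox7a2* had 21.9, 29.8 and 33.8 CPM against 22.6, 36.9 and 27.7 CPM (0.03 ± 0.21). *Cox7b* had 38.2, 26.9 and 25.5 CPM against 36.7, 22.5 and 27.8 CPM (−0.06 ± 0.22). In *Cox7b* the first library of each genotype was highest, and in *Cox7a2* it was lowest.

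*Ndufa4*, the lowest of complex IV, had 40.9, 40.3 and 43.2 CPM in wild-type and 42.2, 37.2 and 27.2 CPM in *Fam102a* KO libraries. The third *Fam102a* KO library was again the low one, and the log2 fold change of −0.22 ± 0.15 (SE) became −0.07 without it.

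*Cox7c*, a small membrane subunit (chr13:86044816-86046904, minus strand), had 47.2, 60.4 and 59.8 CPM of gene reads in wild-type and 58.5, 65.5 and 72.9 CPM in *Fam102a* KO libraries, with overlapping groups. The log2 fold change was 0.23 ± 0.13 (SE), with an unadjusted p of 0.114 in edgeR. With the replicate number as a block the unadjusted p was 0.034 and the adjusted p 0.549, and *Cox7c* was then the only member higher with an unadjusted p below 0.05, where 4.09% of all genes were. On exon reads the sign turned, to −0.06 ± 0.12. Introns took 49.2% of its gene reads, from 187 intron reads in the first wild-type to 871 in the third *Fam102a* KO library, and 8.70% of its gene reads were uniquely placed. It was the only member that lay far from the diagonal when the fold changes by gene reads and by exon reads were plotted together. *Cox7c* was described after its values were seen.

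**Figure D4:**
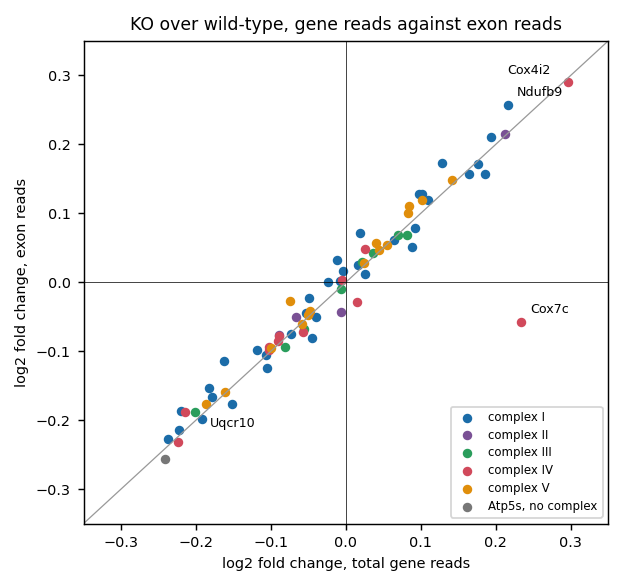
Log2 fold change by exon reads (y axis) against that by total gene reads (x axis) for the 76 members tested on both, coloured by complex, with the line of equal values. The points follow the line apart from *Cox7c*, at 0.23 by gene reads and −0.06 by exon reads.

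In complex V, 8 of 15 genes were above 0. The 5 genes of the F1 head had a median of 0.04 with 4 above 0, the 3 of the membrane part a median of 0.04, the 4 of the peripheral stalk a median of −0.05 and the 3 of the c ring a median of −0.10. *Atp5b*, the catalytic beta subunit and the highest of the complex, had 333, 355 and 372 CPM in wild-type and 364, 390 and 415 CPM in *Fam102a* KO libraries. Each *Fam102a* KO library was above the wild-type library of the same number, but the groups overlapped, and the log2 fold change was 0.14 ± 0.12 (SE, unadjusted p = 0.268 in edgeR). The share of all genes with such an order was not counted. *Atp5a1*, the alpha subunit, had 195, 222 and 235 CPM against 217, 229 and 226 CPM (0.04 ± 0.12). Its groups overlapped. *Atp5s*, outside the enzyme, had the lowest log2 fold change of all members at a low level, with 3.48, 4.82 and 3.94 CPM against 4.10, 3.16 and 3.16 CPM (−0.24 ± 0.24), and its groups overlapped as well.

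The c ring is built from 1 protein that 3 genes encode. *Atp5g1* had 31.3, 37.2 and 33.3 CPM in wild-type and 27.3, 33.0 and 29.2 CPM in *Fam102a* KO libraries. Here each *Fam102a* KO library was below the wild-type library of the same number, the reverse of *Atp5b*. *Atp5g1* was the lowest of complex V, at −0.19 ± 0.12 (SE, unadjusted p = 0.148 in edgeR), and its groups overlapped. *Atp5g2* had 45.1, 53.9 and 58.4 CPM against 48.2, 54.4 and 44.3 CPM (−0.10 ± 0.13). *Atp5g3* had 54.8, 53.0 and 53.4 CPM against 56.8, 57.4 and 53.2 CPM (0.06 ± 0.09). By RPKM, *Atp5g1* gave 9.35 to 11.95% of the summed level in the 6 libraries, *Atp5g2* 43.4 to 51.1% and *Atp5g3* 38.4 to 45.4%. The order of *Atp5g2* and *Atp5g3* was thus not the same in every library. RPKM divide by annotated exon length, which was 4912 bases for *Atp5g1*, 1675 for *Atp5g2* and 2181 for *Atp5g3*. The coding lengths were 408, 438 and 423 bases, so the low share of *Atp5g1* depends on the exon length used.

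Reads of *Atp5g1* and *Atp5g2* are partly shared with other genes. Uniquely placed gene reads were 35.3% for *Atp5g1* and 8.76% for *Atp5g2*, against 99.7% for *Atp5g3*. *Atp5g2* had 14, 12 and 19 uniquely placed exon reads in wild-type and 7, 10 and 5 in *Fam102a* KO libraries. By these reads all *Fam102a* KO libraries were lower in count, although their total reads do not show this, and the log2 fold change was −1.14 ± 0.47 (SE, unadjusted p = 0.036, adjusted p = 0.655 in edgeR). This rests on 5 to 19 reads a library. The median uniquely placed share over the 81 members was 97.4%, with 10 members below 50%, and 34 members overlap another annotated gene, 26 of them on the opposite strand. The sources used here do not state that strand was counted, so reads of such a pair cannot be told apart.

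The third *Fam102a* KO library was low in members of short coding length, and all tested genes of that length had their lowest median there as well. Of the 77 members tested, 15 lay more than 0.25 log2 units below their 6-library mean there, and 13 of these 15 belonged to the 38 members with the shorter coding length (156 to 423 bases). In each of the other libraries 1 to 7 members were that low. Among all genes, 17.3% were that low in the third *Fam102a* KO library, close to the share of the members, and 10.3 to 17.1% in the others. The shorter members had a median deviation of −0.13 in this library and −0.02 to 0.10 in the other 5, while the 39 longer members had 0.03 and −0.10 to 0.06. The 819 tested genes with a coding length in the same range as the shorter members had a median of −0.07 in this library and −0.04 to 0.06 in the other 5. How many of these 819 genes lay more than 0.25 log2 units below their mean was not counted. The comparison by coding length was chosen for description after the values were seen.

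**Figure D5:**
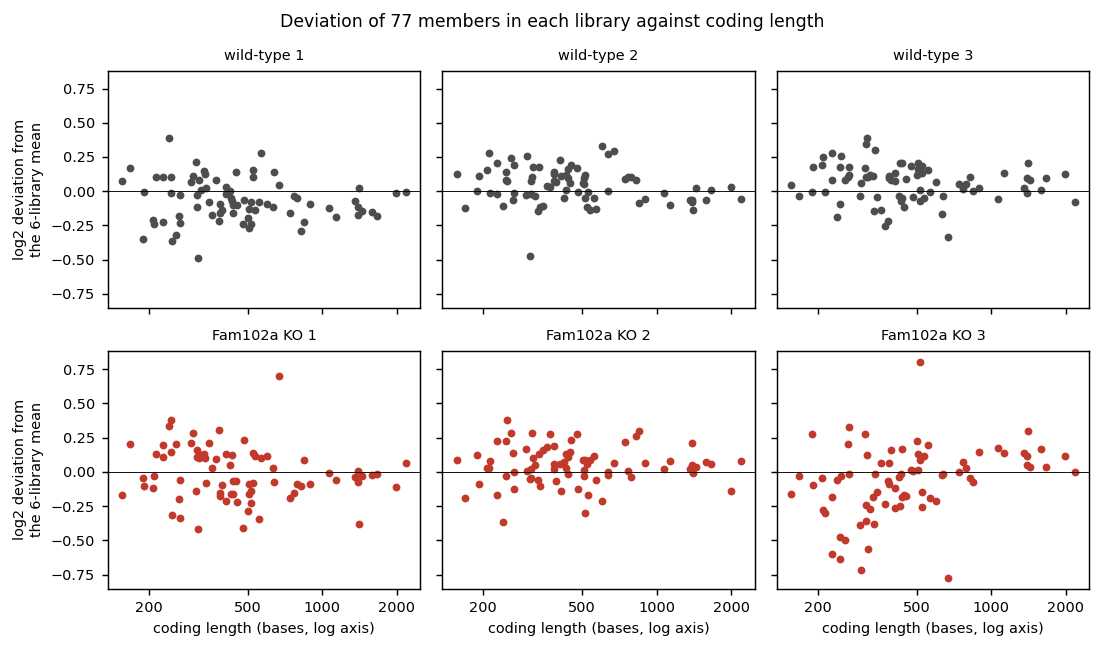
Deviation of each of the 77 members from its mean over the 6 libraries (y axis, log2 CPM) against coding length (x axis, bases, log axis), 1 panel a library, wild-type in grey and *Fam102a* KO in red. In the third *Fam102a* KO library 13 of the 38 shorter members lie below −0.25, against 1 to 4 in each other library.

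Genes that belong to the chain but whose symbols the rule does not match were read from a fixed list. Of 13 tested, 9 were above 0, 1 was higher with an unadjusted p below 0.05 and 0 were lower, beside 2.92% and 3.12% of all genes. The 1 was *Cyc1*, the cytochrome c1 subunit of complex III, with 24.8, 30.6 and 30.0 CPM in wild-type and 35.7, 37.5 and 32.7 CPM in *Fam102a* KO libraries. All *Fam102a* KO libraries were above all wild-type libraries, as in 5.48% of all genes, and the log2 fold change was 0.31 ± 0.12 (SE, unadjusted p = 0.031, adjusted p = 0.761 in edgeR). *Ndufa4l2*, a hypoxia-induced paralogue of *Ndufa4*, had 5.60, 7.43 and 4.97 CPM against 5.18, 13.2 and 24.7 CPM (1.26 ± 0.55, unadjusted p = 0.064). Like *Cox4i2*, it was highest in the third *Fam102a* KO library. *Usmg5* (−0.32) and *Coq10b* (0.24) were the next in size.

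The 13 protein genes of mitochondrial DNA had a median of −0.19. Of the 13, 12 were below 0, where 49.8% of all genes were above 0. With an unadjusted p below 0.05, 0 were higher and 0 lower, beside 2.92% and 3.12% of all genes. The summed level of the 13 was 3788, 3282 and 3720 CPM in wild-type and 3122, 2978 and 3325 CPM in *Fam102a* KO libraries. The groups overlapped, since the third *Fam102a* KO library was above the second wild-type library, while within each replicate number the *Fam102a* KO library was the lower one. The largest in size were *mt-Atp6* (−0.29 ± 0.13, SE, unadjusted p = 0.059 in edgeR), *mt-Co2* (−0.25 ± 0.13) and *mt-Co3* (−0.25 ± 0.16). With the replicate number as a block *mt-Atp6* was lower with an unadjusted p of 0.019 (adjusted p = 0.458 in edgeR), the only 1 of the 13 past an unadjusted p of 0.05, where 4.25% of all genes were lower. On the RPKM scale the sums were 3494, 2835 and 3355 in wild-type and 3083, 2659 and 3483 in *Fam102a* KO libraries, and the third *Fam102a* KO library was then the higher one of its number. Most of these genes are transcribed together from the same DNA, so the 13 are not separate measurements.

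Assembly factors build the complexes but are not part of them. Of 46 tested, 0 were higher and 0 lower with an unadjusted p below 0.05, beside 2.92% and 3.12% of all genes. Of the 46, 15 were above 0 and 31 below, where 49.8% of all genes were above 0. Assembly factors of complex I had a median of −0.12 with 2 of 14 above 0, and the lowest was *Nubpl* (−0.48 ± 0.26), which delivers iron-sulfur clusters. The factors of complex IV ran from *Coa6* (−0.42 ± 0.27) to *Sco2* (0.53 ± 0.36), both needed for the copper centre of the *mt-Co2* subunit. The tricarboxylic acid cycle, beside the same shares of all genes, had 8 of 13 above 0 and 0 past an unadjusted p under 0.05. Its median was 0.10. Its largest value was that of citrate synthase, *Cs*, which had 101, 98.9 and 107 CPM in wild-type and 122, 123 and 112 CPM in *Fam102a* KO libraries (0.22 ± 0.10, unadjusted p = 0.055 in edgeR). All *Fam102a* KO libraries were above all wild-type libraries for *Cs*, as in 5.48% of all genes.

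Regulators of mitochondrial biogenesis gave 0 higher and 0 lower of 14 with an unadjusted p below 0.05, beside 2.92% and 3.12% of all genes. Their median was 0.01. *Ppargc1a*, the coactivator PGC-1alpha, had 0.621 to 1.25 CPM in wild-type and 0.590 to 1.09 CPM in *Fam102a* KO libraries (−0.29 ± 0.44), and *Ppargc1b* had 2.80 to 3.46 against 3.09 to 5.74 CPM (0.40 ± 0.29). The ranges overlapped for both. The 6 carriers and porins, which move ADP, ATP and phosphate across the mitochondrial membranes, had a median of 0.00. Beside the same shares of all genes, 0 of the 6 were past an unadjusted p under 0.05.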

How the data were processed

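Osteoblast total RNA of 3 wild-type and 3 *Fam102a* KO samples was amplified (SMART-seq v4) and read on an Ion Proton. The authors counted reads against mm10 in CLC Genomics Workbench 12.0.3. For strand, mapping settings and annotation release nothing is given in the sources used here. Deposited read counts are whole numbers per gene, where gene reads are exon plus intron reads, and the deposited RPKM divide exon reads by exon length in kilobases and by the library's gene reads (per 1000000).

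Gene reads were fitted in edgeR 4.0.16 (R 4.3.3). The filter (minimum count 10, minimum total 15, large n 10, minimum proportion 0.7) left 16391 genes, which were scaled by TMM and compared by the robust quasi-likelihood test, with p-values adjusted over all of them (Benjamini-Hochberg). The common biological coefficient of variation came to 0.221. The standard error is the absolute log2 fold change divided by the square root of F. CPM are TMM-scaled gene reads, and in the unscaled libraries 1 read was worth 0.0472 to 0.0819 CPM. Floors and intervals of counts cover counting error only.

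Coordinates are those of the deposited tables (mm10). All 81 symbols and 72 of the 81 coordinates matched GENCODE M21, which gave coding lengths and shared 50-base windows. Promoters are from RefSeq (GRCm38.p6). The alternatives tried were RLE factors, upper quartile factors, DESeq2 1.42.0, the fit without the robust option, no filter, a minimum of 10 reads in each library, unique gene reads, exon reads, unique exon reads, limma 3.58.1 on log2(RPKM + 0.1) and log2(RPKM + 1), a replicate block, replicates 2 and 3 only, and each library left out. Exon reads with the block, and the comparison by coding length, were added after the values were seen.

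Whether the replicate numbers pair the libraries was checked over 14259 genes. Wild-type and *Fam102a* KO libraries of the same number deviated together from their group means (r = 0.349, 0.223 and 0.241), and libraries of different numbers did not (r from −0.287 to 0.069). Deviations sum to 0 within a genotype, so positive values for the same number push those for different numbers down, and these add no separate support. What a number stands for is not stated in the sources used here, so the pairing rests on the correlations of the same number. Replicates 2 and 3 share a sequencing run label that replicate 1 lacks.

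The members and gene lists were chosen with earlier results of these data known. Genes named with values are, in each complex, the 2 with the highest wild-type RPKM and the highest and lowest log2 fold change, members with an unadjusted p below 0.05 (0 here), complex IV and c ring isoforms, *Sdha* to *Sdhd*, and at most 4 examples a list. Others are said to be named after their values were seen. Figures were drawn with matplotlib 3.10.9.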

Additional observations from a re-analysis of the deposited data

How the results depend on the processing

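No alternative put a member at an adjusted p under 0.05. The count of all genes at an adjusted p under 0.05, 8 in the reported fit, was 121 with DESeq2, 5 without the robust option, 340 with no filter, 0 on both RPKM scales, 0 with replicates 2 and 3 only, 42 on exon reads with the replicate block and 0 to 13 with each library left out (0 without the first and 13 without the third *Fam102a* KO library, 2 without the second or the third and 5 without the first wild-type library). Of the members, 0 higher became 1 (*Ndufb9*) without the robust option, on exon reads, on uniquely placed exon reads and on exon reads with the block, 1 (*Cox7c*) with the replicate block, and 4 (*Ndufb9*, *Ndufc2*, *Ndufv1* and *Sdhb*) on log2(RPKM + 0.1) and log2(RPKM + 1). It was 0 to 2 with each library left out (*Sdhb* and *Uqcrq* without the third *Fam102a* KO library). The 0 lower became 1 with no filter (*Cox8b*), 1 on uniquely placed exon reads (*Atp5g2*) and 0 to 2 with each library left out (*Ndufa4* and *Ndufb10* without the first, *Atp5e* without the second *Fam102a* KO library). The members' median, −0.02, was 0.099 and 0.093 on the RPKM scales, where the median of all genes moved to 0.11 and 0.06, and with an unadjusted p below 0.05 the shares of all genes higher and lower were 6.39% and 1.60% (pseudocount 0.1) and 6.57% and 1.65% (pseudocount 1). On both RPKM scales 63 members were above 0, against 32 in the reported fit. The members' median was thus below that of all genes on the first of these scales and above it on the second. The cause was not tested. It was −0.07 to −0.01 with each library left out. Of 516 values of the named members under alternatives, 51 changed sign, 22 of them on the RPKM scales. The replicate block, a fit that uses the pairing, gave 9 genes at an adjusted p under 0.05, 0 members lower and a median of −0.02, and beside *Cox7c* it changed no call of a member. Of the listed genes outside the rule it added *mt-Atp6*, *Col2a1*, *Sox9* and *Cdh5*, all lower, to those with an unadjusted p below 0.05, put *S100b* at an adjusted p of 0.044 and removed none. Depth limits *Cox6a2*, *Cox7b2*, *Cox8b* and *Cox8c*, which had at most 10 reads a library.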
